A study of Homo sapiens with 12 samples.

Results

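The 10 genes described here encode enzymes of glycolysis and were taken by name: HK2, GPI, PFKL, ALDOA, TPI1, GAPDH, PGK1, ENO1, PKM and LDHA. Each was measured over its RefSeq span on GRCh38, on its own strand, and these 10 spans stood among 21873 regions in all. The others were transcriptional units, stretches of unbroken transcription that the authors had segmented from the TT-Seq data. All 10 genes passed the filter on low counts, with 19317 regions tested.

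The samples were K562 cells, a long-used human line from a chronic myelogenous leukaemia, at passage 3 to 5, the only line used, in 6 groups of 2 libraries. In all 4 RNA groups the cells had been given 500 µM 4-thiouridine (4sU) for 5 min, a form of uridine that enters new RNA as it is made. TT-Seq held RNA that was sheared and then purified through 4sU, and 4sU-Seq held RNA purified without shearing. Total RNA-Frag-Seq was sheared and not purified, and Total RNA-Seq was neither sheared nor purified, so both total RNA groups also came from labelled cells. Chromatin was crosslinked for 7.5 min and immunoprecipitated (ChIP) with an antibody against RNA polymerase II phosphorylated at serine 2 (S2P), or with the N20 antibody against the polymerase (N20). The design text calls the RNA samples biological duplicates. Nothing in the labels says so of the ChIP libraries, so their p-values may measure technical spread only.

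Glycolysis turns glucose into pyruvate, and lactate dehydrogenase can then reduce the pyruvate to lactate, which renews the cofactor that the oxidising step uses up. The enzymes are made from abundant and often long-lived mRNAs, and proliferating leukaemia cells use the pathway heavily. In 4sU-Seq a molecule is kept whole when any stretch of it carries the label, whereas shearing first, as in TT-Seq, keeps mainly the labelled piece.

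The binned counts of the TT-Seq libraries summed to 68913035 and 71317148, and those of 4sU-Seq to 54295993 and 47092776. For Total RNA-Frag-Seq the sums were 43136737 and 33336294, and for Total RNA-Seq 30382514 and 25909021. The ChIP libraries held 73660126 and 34470652 (S2P) and 12598494 and 23344930 (N20). Every one of the 15780286 ChIP bins above 0 held an even count, while 60.3% of the RNA bins above 0 held an odd one. Of 13 K562 markers, 6 had a span with a strand. All 6 had at least 1 CPM (counts-per-million of the library) in every RNA library, and their sum lay between 600.2 and 827 CPM. TFRC was the highest of them, at 306 to 595 CPM, and EPOR the lowest, at 4.84 to 9.24 CPM. Of the markers of other cell types, only those with a span were measured. Those of T cells (2 of 3) summed to 1.58 to 7.46 CPM. The T cell marker CD3D also had at least 1 CPM in every RNA library (1.54 to 6.98 CPM). Those of B cells (1 of 3), macrophages (2 of 3), epithelium (1 of 4) and hepatocytes (1 of 2) summed to under 1 CPM. The fibroblast markers had no span with a strand and were not measured.

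The promoters of ENO1, GPI and LDHA are shown, as the genes with the highest and the lowest N20 signal at the start of the span and the gene with the most matches to ACGTG. These letters are the core of the element bound by hypoxia-inducible factors. The E-box of MYC family proteins, CACGTG, holds them on both strands. The 250 bases before the first start that RefSeq lists (GRCh38.p14) are given 5′ to 3′ on the gene's strand, with matches to ACGTG on either strand in capitals. They lie at chr1:8878687-8878936 on the minus strand for ENO1, chr19:34364742-34364991 on the plus strand for GPI and chr11:18394313-18394562 on the plus strand for LDHA. The listed start of GPI lies 5274 bases inside its span, so its printed promoter is not at the window with the lowest N20 signal. Around that listed start N20 stood at 14.4 and 18.1 CPM (counts-per-million) per kb.
ENO1: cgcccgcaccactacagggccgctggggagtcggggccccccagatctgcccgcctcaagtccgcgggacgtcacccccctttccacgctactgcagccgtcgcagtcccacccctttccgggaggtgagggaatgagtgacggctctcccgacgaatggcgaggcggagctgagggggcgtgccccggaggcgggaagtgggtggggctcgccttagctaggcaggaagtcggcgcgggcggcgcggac
GPI: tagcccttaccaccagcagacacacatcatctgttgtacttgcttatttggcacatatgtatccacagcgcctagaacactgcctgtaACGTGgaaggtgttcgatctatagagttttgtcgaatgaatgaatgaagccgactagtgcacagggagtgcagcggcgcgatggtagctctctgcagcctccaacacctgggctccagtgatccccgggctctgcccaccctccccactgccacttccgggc
LDHA: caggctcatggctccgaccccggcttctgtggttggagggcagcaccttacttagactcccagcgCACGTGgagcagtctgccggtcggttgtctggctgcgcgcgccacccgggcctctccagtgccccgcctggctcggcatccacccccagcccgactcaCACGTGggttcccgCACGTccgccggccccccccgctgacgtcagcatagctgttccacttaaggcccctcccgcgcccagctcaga

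The LDHA promoter held 5 matches, where a CACGTG counts once on each strand. That of GPI held 1 and that of ENO1 none. GGGCGG, the letters of the GC box bound by SP factors, occurred 1 time in the ENO1 promoter on either strand and in neither of the other 2. TATAAA was in no promoter of the 10 genes. Of 35116 RefSeq promoters of this length, 18.51% held ACGTG, 42.64% held GGGCGG and 10.72% held TATAAA on either strand.

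The first comparison sets newly made RNA against all RNA, both sheared. Here 9 of the 10 genes were lower in TT-Seq and none was higher, relative to Total RNA-Frag-Seq. The exception was HK2. The background for this count was high: 37.8% of all 19317 regions were lower and 43.2% higher (without normalisation factors, 4848 lower and 11170 higher). Among the 7800 units of the authors' mRNA class, 61.2% were lower and 18% higher. The median log2 fold change was -1.45 over the 10 genes, 0.09 over all regions and -0.34 over the mRNA class. The levels are CPM with TMM factors, hence shares of a library and not amounts per cell, and fewer cells with a transcript cannot be told apart from less RNA per cell. Summed over the 10 genes, they were 1121 ± 20.8 CPM in TT-Seq, 3682 ± 259 CPM in Total RNA-Frag-Seq, 2145 ± 81.2 CPM in 4sU-Seq and 4158 ± 259.9 CPM in Total RNA-Seq (SD, n = 2 each).

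HK2 (chr2:74834127-74893359, plus strand) encodes the hexokinase that phosphorylates glucose on its entry into the pathway. It had 106 and 110.0 CPM in TT-Seq libraries, against 116 and 115 CPM in those of Total RNA-Frag-Seq. The groups did not overlap but lay close together, with a log2 fold change of -0.10 ± 0.05 (SE) and an edgeR adjusted p of 0.112. In this comparison HK2 was the 1 gene whose direction depended on the scaling, at 0.25 without normalisation factors and 0.36 (adjusted p = 4.15e-05) when the spans of 12061 RefSeq coding genes took the place of the authors' units. In that second setting all 10 values moved up, the other 9 genes stayed lower, the median over the 10 genes was -0.99, and 34.9% of the spans were lower and 32.5% higher, with a median of -0.05.

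GPI (chr19:34359718-34402413, plus strand), the isomerase that turns glucose phosphate into fructose phosphate, had 53.1 and 55.1 CPM in TT-Seq libraries, against 329.9 and 323 CPM in those of Total RNA-Frag-Seq. It was 6.03-fold lower, at -2.59 ± 0.07 (log2 ± SE). PFKL (chr21:44300053-44327373, plus strand), the liver-type subunit of the phosphofructokinase that commits sugar to glycolysis, had 23.5 and 25.7 CPM in TT-Seq libraries, against 74.9 and 75.5 CPM in those of Total RNA-Frag-Seq. PFKL was the lowest of the 10 genes in every RNA library, and it was 3.05-fold lower in TT-Seq. ALDOA (chr16:30064279-30070420, plus strand), the aldolase that cleaves fructose bisphosphate into triose phosphates, had 92.6 and 103 CPM in TT-Seq libraries, against 739 and 679 CPM in those of Total RNA-Frag-Seq. TPI1 (chr12:6867420-6870948, plus strand), which interconverts the triose phosphates, had 30.0 and 26.9 CPM in TT-Seq libraries, against 192 and 161 CPM in those of Total RNA-Frag-Seq. Both fell beyond any spread between replicates, ALDOA by 2.86 and TPI1 by 2.64 on the log2 scale.

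GAPDH (chr12:6534517-6538371, plus strand), the dehydrogenase of the oxidising step, had 112 and 119.6 CPM in TT-Seq libraries, against 839 and 753 CPM in those of Total RNA-Frag-Seq, a change of -2.78 ± 0.08. GPI, ALDOA, TPI1 and GAPDH thus stood apart, between the 0.0880 and 0.238 percentile of all log2 fold changes. Among RefSeq coding gene spans they lay between the 0.514 and 1.06 percentile. The enzymes after GAPDH fell less. PGK1 (chrX:78104248-78129295, plus strand), the kinase that makes the first ATP of the pathway, had 137 and 134 CPM in TT-Seq libraries, against 305 and 247 CPM in those of Total RNA-Frag-Seq. ENO1 (chr1:8861000-8878686, minus strand), the enolase that makes phosphoenolpyruvate, had 259 and 270.4 CPM in TT-Seq libraries, against 584.5 and 495.5 CPM in those of Total RNA-Frag-Seq. PKM (chr15:72199029-72231591, minus strand), the pyruvate kinase, had 117 and 118 CPM in TT-Seq libraries, against 247 and 238 CPM in those of Total RNA-Frag-Seq. PGK1, ENO1 and PKM were nearly alike in their change, at -1.03 ± 0.08, -1.03 ± 0.07 and -1.04 ± 0.05. LDHA (chr11:18394563-18408425, plus strand), which reduces pyruvate to lactate, had 176 and 173 CPM in TT-Seq libraries, against 439 and 413 CPM in those of Total RNA-Frag-Seq, a change of -1.29 ± 0.06. The edgeR adjusted p of the 9 genes that fell lay between 1.11e-13 and 2.17e-08. Of these genes, 7 have processed pseudogenes elsewhere in the genome (GAPDH, LDHA, PGK1, TPI1, ENO1, PKM and ALDOA). The sources used here do not give the handling of reads that match more than 1 place, so these levels are uncertain by that share.

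**Figure D1:**
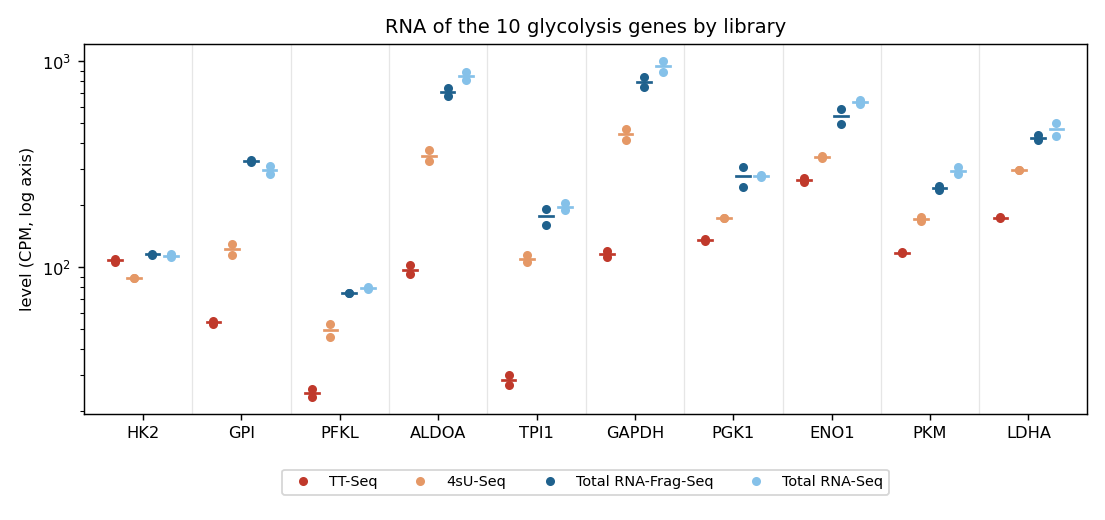
Level of each gene in CPM (log axis) in the 8 RNA libraries; points are libraries and short lines the mean of each group of 2. In 9 of the 10 genes the TT-Seq points lie well below both total RNA groups, while those of HK2 (106 and 110.0 CPM) lie close to Total RNA-Frag-Seq (116 and 115 CPM).

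Per kilobase of span, introns included, the order of the TT-Seq levels was GAPDH (30.5 ± 1.39 CPM per kb), ALDOA (15.7 ± 1.12), ENO1 (15.03 ± 0.475), LDHA (12.6 ± 0.151), TPI1 (7.90 ± 0.622), PGK1 (5.42 ± 0.0921), PKM (3.61 ± 0.0322), HK2 (1.83 ± 0.0467), GPI (1.27 ± 0.0337) and PFKL (0.899 ± 0.0559; SD, n = 2 each). ALDOA and ENO1 differed by less than their spread, and the other neighbours did not overlap. In Total RNA-Frag-Seq the order began with GAPDH (209.5 ± 15.9 CPM per kb), ALDOA (114 ± 6.79) and TPI1 (49.1 ± 6.09), and ended with PFKL (2.74 ± 0.0154) and HK2 (1.95 ± 0.0112). LDHA (30.9 ± 1.32) and ENO1 (30.7 ± 3.58) overlapped there, as did GPI (7.66 ± 0.120) and PKM (7.44 ± 0.207). GAPDH was at the 99.68 percentile of RefSeq coding spans per kb in TT-Seq, and PFKL at the 53.16 percentile. Over the 10 genes, the rank correlation between the TT-Seq and Total RNA-Frag-Seq level per kb was 0.891. Span length and the log2 fold change had a rank correlation of 0.636 over the same 10 genes. Both are descriptions of 10 points that share libraries and, for levels per kb, the span length.

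In 4sU-Seq all 10 genes were below their Total RNA-Seq level, where 28.2% of all regions were lower and 40.2% higher (DESeq2 gave 6513 lower and 4735 higher, and the fit without normalisation factors 4046 and 9405). Of the mRNA class units 49.5% were lower and 20.7% higher. ALDOA had 326 and 370.4 CPM in 4sU-Seq and 815 and 890.1 CPM in Total RNA-Seq, a change of -1.29 ± 0.07. GPI had 129.7 and 114 CPM in 4sU-Seq and 284 and 310.1 CPM in Total RNA-Seq, and fell by 1.28. These 2 changed most. HK2 changed least, with 88.5 and 89.0 CPM in 4sU-Seq and 116 and 112 CPM in Total RNA-Seq, a change of -0.36 ± 0.06. The others lay between, GAPDH at -1.10, ENO1 at -0.88, TPI1 at -0.84, PKM at -0.78, PGK1 at -0.68, PFKL at -0.68 and LDHA at -0.66. With RefSeq coding spans HK2 no longer passed (-0.12, adjusted p = 0.0838) and the other 9 stayed lower, against 30.1% of the spans lower and 27.3% higher. The median over the 10 genes was -0.81, and over all regions 0.19.

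Between TT-Seq and 4sU-Seq, which differ in shearing before purification, 9 of the 10 genes were lower in TT-Seq and HK2 was higher, against 28.7% of all regions lower and 19.8% higher. Of the mRNA class units 39.4% were lower and 30.1% higher. The TT-Seq libraries are those already given, so only 4sU-Seq values are added here. TPI1 had 106 and 115 CPM in 4sU-Seq, and its change was -1.95 ± 0.09. GAPDH had 413 and 469 CPM in 4sU-Seq and changed by -1.93 ± 0.08, and ALDOA by -1.84 ± 0.07. These are the 3 shortest spans of the set, at 3.5, 3.9 and 6.1 kb. GPI changed by -1.17, PFKL (46.0 and 53.2 CPM in 4sU-Seq) by -1.01, LDHA (297 and 297.5 CPM in 4sU-Seq) by -0.77 and PKM (168 and 175 CPM in 4sU-Seq) by -0.54. ENO1 (339.5 and 346 CPM in 4sU-Seq) at -0.37 and PGK1 (173 and 173 CPM in 4sU-Seq) at -0.35 changed least among those that fell, and neither passed with RefSeq coding spans (adjusted p = 0.0540 and 0.129), of which 31.1% were lower and 32.2% higher. Over the authors' own unit, which also holds PDCD2L and UBA2, GPI did not pass (-0.06, adjusted p = 0.389). HK2 was 0.28 ± 0.05 higher (adjusted p = 0.000292), and 0.51 higher with RefSeq coding spans.

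**Figure D2:**
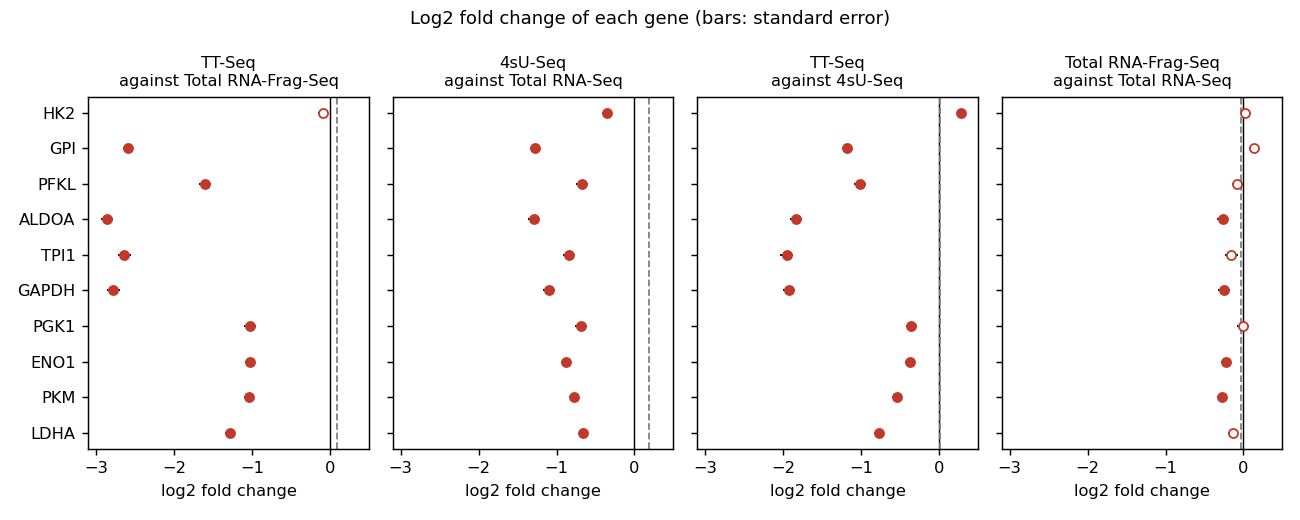
Log2 fold change of each gene in 4 comparisons; bars are standard errors, filled points passed the edgeR test at an adjusted p of 0.05, open points did not, and the dashed line is the median of all 19317 regions. The values of GPI, ALDOA, TPI1 and GAPDH lie farthest from 0 in the first panel (-2.59 to -2.86), and those of the last panel lie between -0.28 and 0.14, HK2 at 0.02 there being on either side of 0 by scaling.

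The change on purification differed with shearing in 9 of the 10 genes by the test of that difference. It was more negative in sheared RNA for 8 genes (25.8% of all regions were more negative and 8.79% less so), from -1.80 ± 0.12 in TPI1, -1.68 ± 0.11 in GAPDH, -1.57 ± 0.10 in ALDOA and -1.31 ± 0.09 in GPI to -0.26 ± 0.08 in PKM. It was less negative for HK2, at 0.26 ± 0.08. Of the mRNA class units 39.6% were more negative and 12.5% less so. ENO1 did not pass, at -0.15 ± 0.09 (adjusted p = 0.244). The smaller values depended on the libraries: PGK1 (-0.35, adjusted p = 0.0209) passed only with all libraries or without replicate 2 of Total RNA-Frag-Seq or of Total RNA-Seq. PKM was lost without either TT-Seq library (-0.14 in both), without replicate 2 of Total RNA-Frag-Seq (-0.19) or without replicate 1 of Total RNA-Seq (-0.21). HK2 was lost without replicate 1 of Total RNA-Seq (0.23, adjusted p = 0.0798). PGK1 was also lost over the authors' units (-0.23, adjusted p = 0.0770). PGK1 and PKM were both lost under DESeq2, without normalisation factors and with RefSeq coding spans, of which 24.6% were more negative and 21.3% less so. Without normalisation factors 3264 of all regions were more negative and 3519 less so, and under DESeq2 3641 and 2263.

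Shearing alone, with Total RNA-Frag-Seq set against Total RNA-Seq, went with small differences. ALDOA (-0.27 ± 0.07), GAPDH (-0.25 ± 0.08), ENO1 (-0.23 ± 0.07) and PKM (-0.28 ± 0.05) were lower, 4 of the 10 genes against 5.54% of all regions lower and 16.6% higher. Of the mRNA class units 6.09% were lower and 30.1% higher, and of the RefSeq coding spans 12% were lower and 20.9% higher. DESeq2 called 2320 of all regions lower and 2024 higher, against 1070 and 3203 here, and without normalisation factors these were 3215 and 1613. The count of lower genes was then 6 and 7. PKM had 247 and 238 CPM in Total RNA-Frag-Seq and 282.5 and 306 CPM in Total RNA-Seq, and GAPDH 839 and 753 CPM in Total RNA-Frag-Seq and 886 and 1005 CPM in Total RNA-Seq. Neither pair of groups overlapped. Without replicate 2 of Total RNA-Seq only PKM passed. Without replicate 1 of Total RNA-Seq, ENO1 did not.

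RNA was also compared along each gene, as counts in the first over counts in the last of 3 equal stretches, the 5' and the 3' stretch. In all 10 genes this ratio was higher in TT-Seq than in 4sU-Seq, and also higher than in the sheared total RNA (limma). Of 6938 mRNA class units and genes, 47% were higher and 11.7% lower than in 4sU-Seq. Against Total RNA-Frag-Seq, 62% were higher and 16.3% lower. These shares are of unlike stretches, cut from the authors' units there and from RefSeq spans for the 10 genes. The median ratio of the units was 0.888 and 1.005 in the Total RNA-Frag-Seq libraries. No background over RefSeq spans was computed for this ratio. ENO1 moved most against Total RNA-Frag-Seq: the ratio in the TT-Seq libraries stood at 0.939 and 0.880, against 0.0654 and 0.0847 in the sheared total RNA, a difference of 3.61 ± 0.12 in log2 ratio. The 4sU-Seq libraries had 0.444 and 0.366 for ENO1. The 3' excess of ENO1 was thus smallest in TT-Seq, and the 3 groups did not overlap. For GAPDH the ratio stood at 0.0344 and 0.0366 in TT-Seq, 0.0113 and 0.0159 in 4sU-Seq and 0.00353 and 0.00364 in Total RNA-Frag-Seq. PFKL was the 1 gene with more counts in its 5' than its 3' stretch in TT-Seq, at 1.62 and 1.67, against 0.777 and 0.707 in 4sU-Seq and 0.320 and 0.384 in Total RNA-Frag-Seq. The difference in log2 ratio between TT-Seq and 4sU-Seq ran from 0.43 in HK2 to 1.54 in LDHA, with a median of 0.29 over all units. HK2 lost its call there without replicate 2 of TT-Seq (adjusted p = 0.0744) or of 4sU-Seq (0.0615), and ALDOA without replicate 1 of 4sU-Seq (0.0642). Against Total RNA-Frag-Seq the differences ran from 0.82 in TPI1, which changed sign with 2 equal stretches in place of 3 (-0.12, adjusted p = 0.354), to that of ENO1.

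The counts of HK2, GPI, PGK1, ENO1, PKM and LDHA were also spread more evenly in TT-Seq. The fullest 10% of the bins of HK2 held 26.7 ± 0.908% of its counts in TT-Seq and 61.6 ± 2.34% in Total RNA-Frag-Seq (SD, n = 2 each). For ENO1 they held 40.9 ± 1.01% in TT-Seq and 79.2 ± 2.51% in Total RNA-Frag-Seq, for PKM 45.2 ± 1.06% in TT-Seq and 78.7 ± 2.01% in Total RNA-Frag-Seq, and for LDHA 67.4 ± 2.20% in TT-Seq and 92.0 ± 0.583% in Total RNA-Frag-Seq. PGK1 had 40.8 ± 1.60% in TT-Seq and 69.4 ± 5.62% in Total RNA-Frag-Seq, and GPI 41.2 ± 2.36% in TT-Seq and 49.2 ± 1.06% in Total RNA-Frag-Seq. The other 4 genes were close together or went the other way. PFKL had 44.8 ± 1.57% in TT-Seq and 44.2 ± 1.75% in Total RNA-Frag-Seq, and GAPDH 54.4 ± 1.91% in TT-Seq and 46.8 ± 2.95% in Total RNA-Frag-Seq. TPI1 had 70.9 ± 5.28% in TT-Seq and 63.4 ± 1.13% in Total RNA-Frag-Seq, and ALDOA 55.7 ± 1.09% in TT-Seq and 57.5 ± 0.628% in Total RNA-Frag-Seq. No test was run on these shares. In Total RNA-Frag-Seq the fullest bin lay within 0.9 kb of the 3' end in 8 genes, and 2.3 kb before it in GPI and 3.2 kb before it in PGK1. In TT-Seq it lay elsewhere only in HK2 (21.7 kb before the 3' end) and PFKL (16.3 kb), the other 8 keeping theirs to within 0.2 kb. RNA on the opposite strand was at most 3.32% of a gene's counts in any RNA library (ALDOA in TT-Seq, 3.32 and 3.20%).

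**Figure D3:**
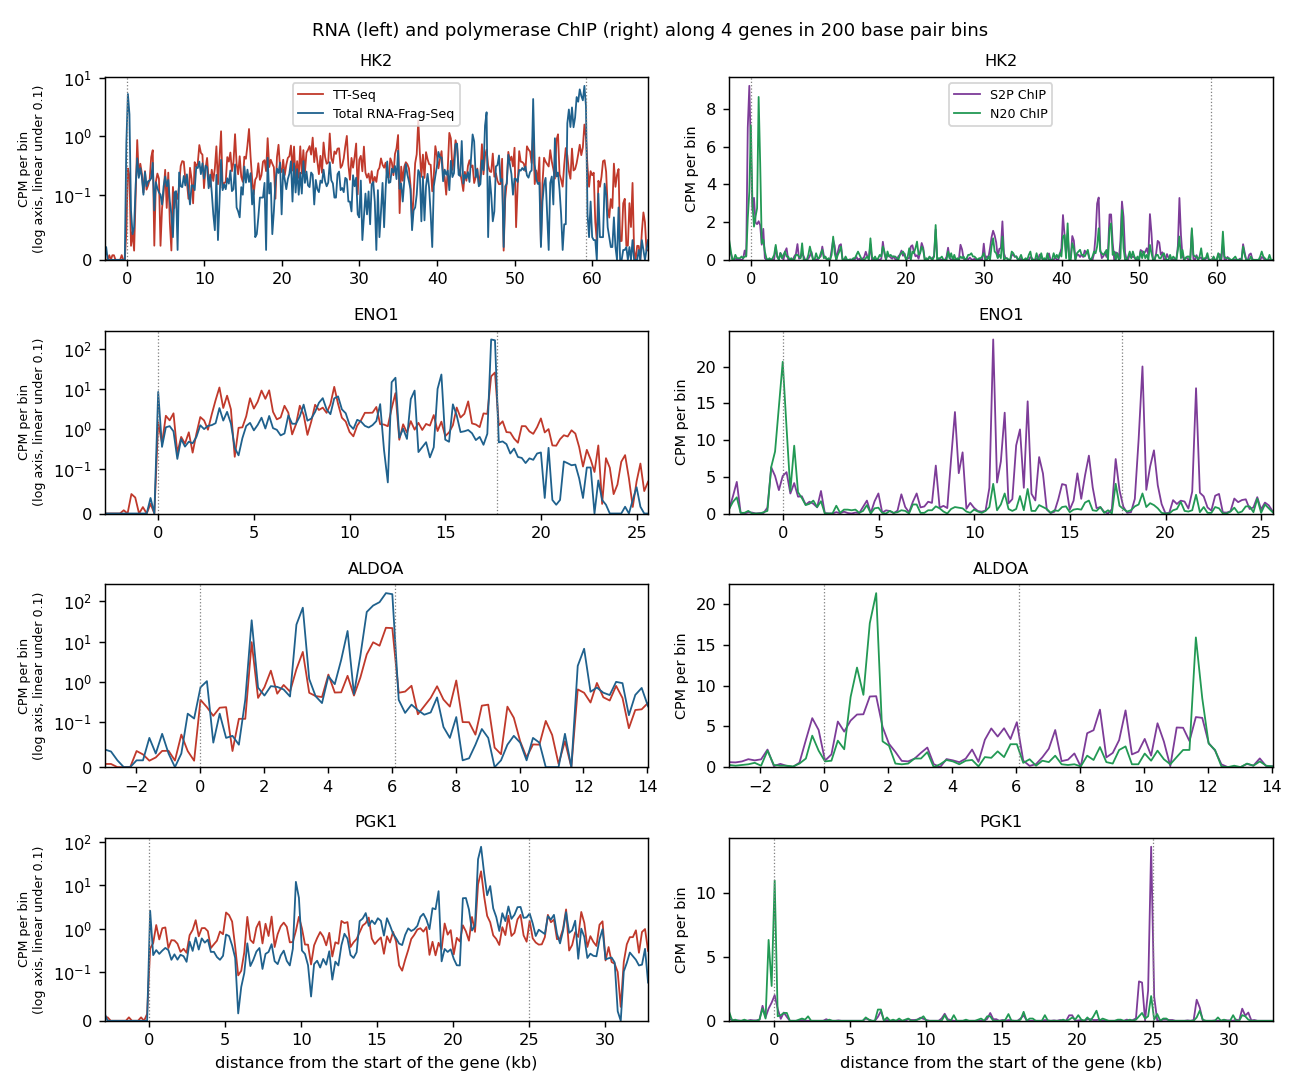
Mean CPM per 200 base pair bin along HK2, ENO1, ALDOA and PGK1, by distance from the start in kb, with dotted lines at the start and the 3' end: RNA on the gene's strand at left (log axis, linear under 0.1) and polymerase ChIP at right (linear axis). Total RNA-Frag-Seq peaks at the 3' end (at 21.8 kb in PGK1), TT-Seq is flatter over HK2 and ENO1, and N20 peaks near the start of HK2, ENO1 and PGK1, and about 1.6 kb inside ALDOA.

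RNA in the 5 kb after the 3' end was set against the same library totals. With TT-Seq set against Total RNA-Frag-Seq, 7 of the 10 genes were higher, GPI was lower, and PFKL and PGK1 did not pass. The background depends on where windows are placed: after the ends of the authors' units 11.9% of 2308 windows were higher and 30.1% lower (500 higher and 443 lower without normalisation factors). After RefSeq 3' ends, the placement used for these genes, 69.8% of 4775 windows were higher and 8.67% lower, so 7 of 10 is at that background. Both backgrounds leave out windows with over 0.2 of their length in another unit, or another coding gene, of the same strand. The windows of the 10 genes were kept whatever their overlap. ENO1 had 1336 and 1376 counts in this window in TT-Seq and 145 and 125 in Total RNA-Frag-Seq, a change of 2.07 ± 0.13. HK2 had 299 and 293 counts in TT-Seq and 37 and 26 in Total RNA-Frag-Seq (1.98 ± 0.19), and ALDOA 461 and 488 in TT-Seq and 100 and 55 in Total RNA-Frag-Seq (1.37 ± 0.15). None of these 3 windows held another RefSeq gene. GAPDH had 44 and 28 counts in TT-Seq and 3 and 2 in Total RNA-Frag-Seq, PKM 32 and 40 in TT-Seq and 5 and 0 in Total RNA-Frag-Seq, and LDHA 60 and 48 in TT-Seq and 9 and 4 in Total RNA-Frag-Seq. These 3 passed on few counts, with SE of 0.40 to 0.55. TPI1 (0.49 ± 0.20, adjusted p = 0.0405) was lost without replicate 2 of TT-Seq, either replicate of Total RNA-Frag-Seq or the filter on low counts (adjusted p = 0.0931). The call of PGK1 went both ways, being higher in TT-Seq without normalisation factors (0.36, adjusted p = 0.00230) and lower with a 2 kb window (-0.43, adjusted p = 5.06e-05).

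As a share of the gene's own level per kb, the window after ENO1 stood at 26.7 and 25.5% in TT-Seq and 2.65 and 3.51% in Total RNA-Frag-Seq, and that after HK2 at 48.9 and 44.8% in TT-Seq and 11.5 and 10.6% in Total RNA-Frag-Seq. Over coding genes the median stood at 26.8 and 26.1% in TT-Seq, against 8.17 and 8.04% in Total RNA-Frag-Seq. PGK1 reached 95.0 and 89.4% in TT-Seq and 39.0 and 52.0% in Total RNA-Frag-Seq, with its fullest bin 3.2 kb before the RefSeq 3' end in all 4 RNA groups and TAF9B annotated within the window. GAPDH lay at the other end, at 0.438 and 0.253% in TT-Seq and 0.00826 and 0.00797% in Total RNA-Frag-Seq. The windows after PKM (GRAMD2A) and GPI (PDCD2L) hold a gene on the same strand. Those after PFKL (CFAP410), TPI1 (SPSB2), GAPDH (IFFO1) and LDHA (LDHC) also hold genes, listed here without regard to strand. The part of all these genes in the values was not tested.

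Against 4sU-Seq the same windows were higher in TT-Seq for HK2 (0.56 ± 0.15), ALDOA (0.60 ± 0.13), GAPDH (1.00 ± 0.36), ENO1 (1.07 ± 0.11), PKM (1.06 ± 0.37) and LDHA (1.36 ± 0.32), against 6.11% of windows after unit ends. Tested among windows after RefSeq ends, where 56% were higher, PGK1 passed too (0.26, adjusted p = 0.0290), and 7 of 10 is near that background. GPI was lower (-0.56 ± 0.14), against 16.9% of windows after unit ends and 5.8% after RefSeq ends. ENO1 had 439 and 424 counts in 4sU-Seq and ALDOA 205 and 214. Leaving out 1 library ended the call of GAPDH (TT-Seq replicate 1 or either replicate of 4sU-Seq), PKM (either replicate of TT-Seq or 4sU-Seq replicate 1), HK2 (TT-Seq replicate 1) and GPI (4sU-Seq replicate 2). It left those of ALDOA, ENO1 and LDHA in place. Without the filter on low counts GAPDH (adjusted p = 0.0865) and PKM (0.0630) did not pass.

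**Figure D4:**
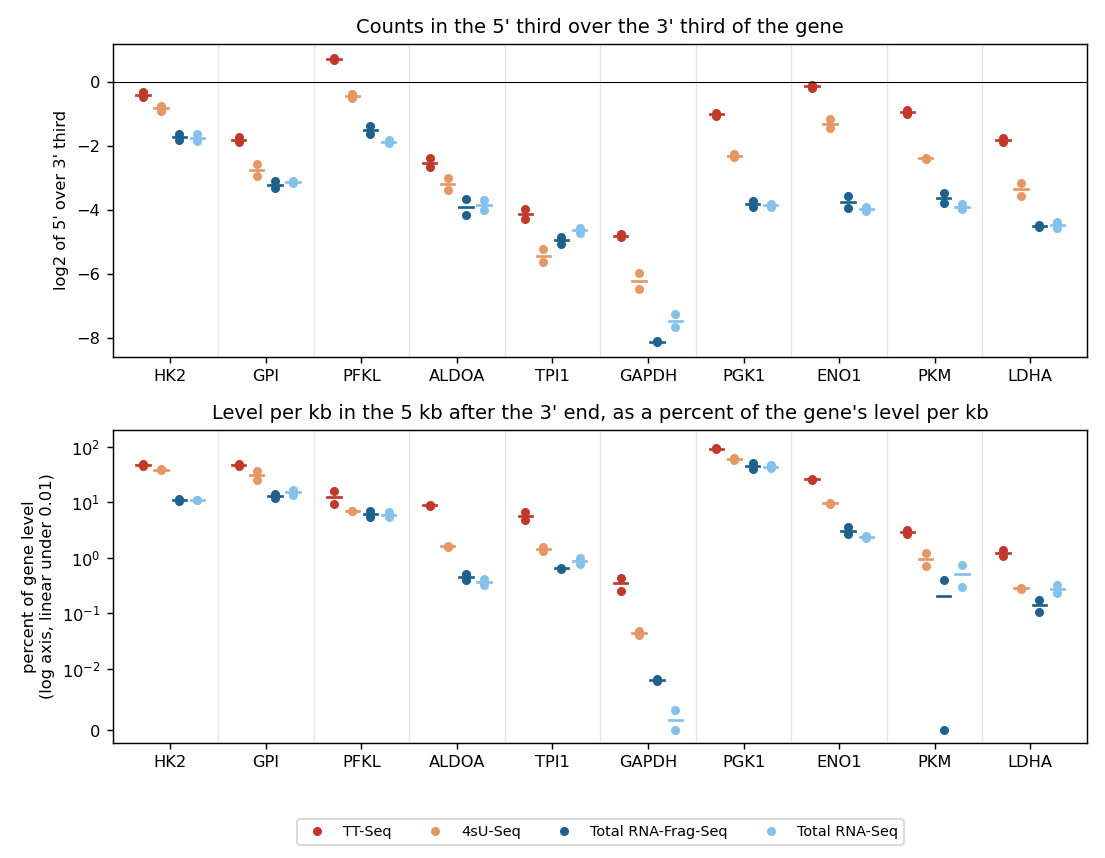
Upper panel, log2 ratio of counts in the first to the last of 3 equal stretches of each gene; lower panel, level per kb in the 5 kb after the 3' end as a percent of the gene's own level per kb (log axis, linear under 0.01); points are libraries and short lines group means. The mean of TT-Seq is the highest of the groups in both panels in all 10 genes, and PGK1 reaches 95.0% in the lower panel.

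Polymerase was counted without strand in 3 windows of each gene: the start (400 base pairs before to 600 after), the body (from 1000 base pairs after the start to the 3' end) and the 5 kb after the 3' end. Serine 2 phosphorylation is known to build up on the polymerase as it moves towards the 3' end of a gene. There was no input library among those used here, so differences between the antibodies are relative to the median window. Levels are CPM per kb, relative to the counts of all windows tested. The windows of the 10 genes were placed by their RefSeq spans. All other windows were placed by the starts and ends of the authors' mRNA class units, so the background shares below are of unlike features. The deposited even counts were used; with counts halved, PFKL at the start also passed (-0.87, adjusted p = 0.0474) and no other call on the 10 genes changed.

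At the start, S2P was lower than N20 for 5 genes (GAPDH, PGK1, ENO1, PKM and LDHA) and higher for none, against 49.5% of 7391 start windows lower and 1.43% higher. ENO1 had 15.1 and 26.5 CPM per kb in S2P and 65.9 and 52.8 CPM per kb in N20, a log2 fold change of -1.52 ± 0.28. LDHA had 7.86 and 15.6 CPM per kb in S2P and 45.5 and 34.0 CPM per kb in N20 (-1.77 ± 0.37), and PGK1 5.06 and 5.87 CPM per kb in S2P and 23.1 and 18.6 CPM per kb in N20 (-1.93 ± 0.44). The antibody groups did not overlap in these 3 genes. They also did not overlap in 3 genes that did not pass: GPI (5.30 and 4.50 CPM per kb in S2P, 6.66 and 7.80 in N20), PFKL and TPI1. PFKL had 12.5 and 27.1 CPM per kb in S2P and 27.3 and 42.9 in N20, and TPI1 21.3 and 31.6 in S2P and 32.6 and 34.0 in N20. HK2 (16.1 and 29.5 CPM per kb in S2P, 18.2 and 17.4 in N20) and ALDOA (16.8 and 20.4 in S2P, 12.6 and 8.68 in N20) did not pass either. Without N20 replicate 1 only ENO1 still passed, and without N20 replicate 2 GAPDH was lost. Without S2P replicate 1, HK2 (0.79) and ALDOA (1.01) were higher in S2P, and without S2P replicate 2, PFKL and TPI1 were lower, giving 7 genes. Without normalisation factors, 8 genes were lower, with 9835 of all 22672 windows lower and 1972 higher (with them, 4529 or 20% were lower and 4317 or 19% higher).

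GPI had the lowest N20 signal at the start of its span, 6.66 and 7.80 CPM per kb, but 14.4 and 18.1 CPM per kb around its listed start, the base after its printed promoter. There S2P was lower (-1.09, adjusted p = 0.0468). ALDOA likewise had 59.9 and 47.7 CPM per kb in N20 around the start listed 1481 base pairs inside its span, against 12.6 and 8.68 at the span's first base. GAPDH had 29.4 and 33.7 CPM per kb in N20 at the span's first base and 13.7 and 11.7 CPM per kb around the start listed 747 base pairs further on, where S2P against N20 did not pass the test (-0.10, adjusted p = 0.886).

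In the body, S2P was higher than N20 for 7 genes and lower for none, against 41.5% of 7784 body windows higher and 4.37% lower. ENO1 had 17.2 and 11.8 CPM per kb in S2P and 3.44 and 3.81 CPM per kb in N20, a change of 2.00 ± 0.18. PFKL had 19.6 and 19.3 CPM per kb in S2P and 7.75 and 5.73 CPM per kb in N20 (1.53 ± 0.17). In both, every S2P library was above every N20 library. TPI1 (1.67 ± 0.45), GAPDH (1.06 ± 0.41), PGK1 (0.97 ± 0.38), PKM (0.94 ± 0.20) and GPI (0.94 ± 0.18) also passed. TPI1, GAPDH and PGK1 were lost without either N20 library, PGK1 also without S2P replicate 1, while HK2 passed without S2P replicate 2 (0.37). Without normalisation factors only PFKL, TPI1 and ENO1 were higher and ALDOA was lower (-0.76). In the body of ALDOA, which holds its inner start, the values were 13.8 and 16.7 CPM per kb in S2P and 17.6 and 15.7 in N20.

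After the 3' end, S2P was higher than N20 for 6 genes (PFKL, ALDOA, TPI1, GAPDH, ENO1 and PKM) and lower for GPI. Of 7497 windows, nearly all after the ends of the authors' units, 13% were higher and 7.06% lower. No ChIP background after RefSeq 3' ends was computed, so the count of 6 has no background of like placement. PFKL had 51.4 and 58.8 CPM per kb in S2P and 15.1 and 9.71 CPM per kb in N20, a change of 2.16 ± 0.19, and ENO1 23.7 and 13.5 CPM per kb in S2P and 3.64 and 3.90 CPM per kb in N20 (2.3 ± 0.248). TPI1 had 32.0 and 25.3 CPM per kb in S2P and 7.92 and 7.09 CPM per kb in N20 (1.94 ± 0.19). The S2P signal of PFKL and TPI1 was thus higher after the gene than in its body, and the part of the genes annotated in those windows (CFAP410 and SPSB2) was not tested. GPI had 4.64 and 4.23 CPM per kb in S2P and 8.62 and 6.87 in N20 (-0.80 ± 0.31, adjusted p = 0.0344), with PDCD2L annotated in its window, and it was lost without either N20 library or with a 2 kb window. GAPDH (1.36 ± 0.32) was lost without N20 replicate 2 and without normalisation factors (0.73, adjusted p = 0.0737).

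The ratio of start to body per kb, a description without a test, was highest for N20 in PGK1, at 39.6 and 28.0 (3.23 and 6.71 in S2P). It was lowest for N20 in ALDOA, at 0.717 and 0.554 (1.22 and 1.22 in S2P). The ALDOA ratio uses the first base of the span, while its body window holds the inner start, where N20 stood at 59.9 and 47.7 CPM per kb. Its rank thus depends on the start used. For S2P it was highest in HK2, at 8.66 and 20.1, against 12.6 and 12.7 in N20. The median of mRNA class units over 2 kb was 2.38 and 4.29 in S2P and 9.08 and 10.1 in N20. In N20 the ratio was above that median in HK2, TPI1, PGK1, ENO1, PKM and LDHA and below it in GPI, PFKL, ALDOA and GAPDH. Over the 10 genes, the rank correlation of the TT-Seq level with the polymerase level per kb was 0.2 for S2P and 0.261 for N20 in the body, and 0.139 for S2P and 0.176 for N20 at the start. For the Total RNA-Frag-Seq level it was higher in the body (0.297 for S2P, 0.309 for N20) and lower at the start (0.042 and 0.018). The start values use the first base of each span. These are descriptions of 10 points.

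**Figure D5:**
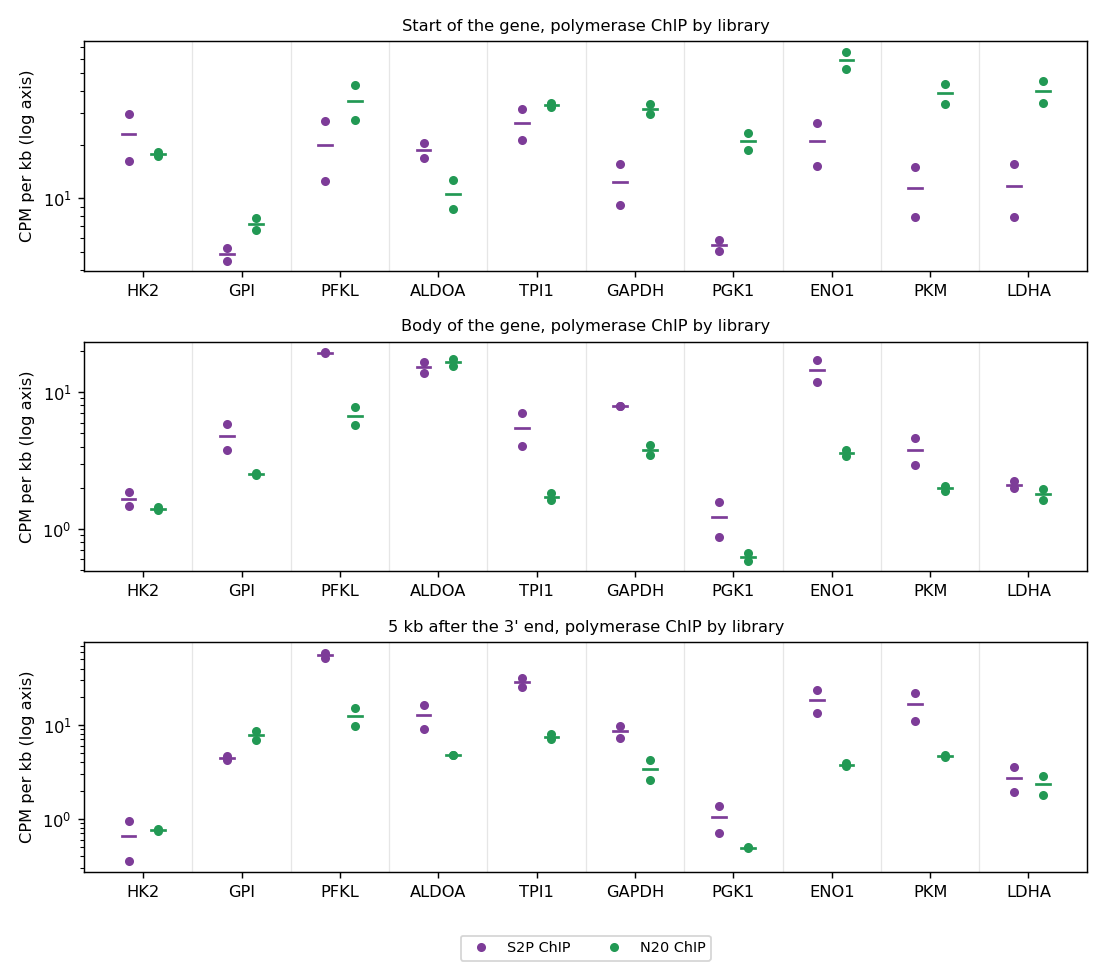
Polymerase ChIP level in CPM per kb (log axes) at the start, in the body and in the 5 kb after the 3' end of each gene; points are libraries and short lines the mean of 2. N20 is above S2P at the start of GAPDH, PGK1, ENO1, PKM and LDHA, which passed the test, and of GPI, PFKL and TPI1, which did not. S2P is above N20 in the body and after the end of PFKL, TPI1, ENO1 and PKM, among others.

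Other genes of the pathway were taken from lists, through the authors' units that carry their name. The counts below stand beside 61.2% of mRNA class units lower and 18% higher, and 34.9% of RefSeq coding spans lower and 32.5% higher. Of 18 other glycolysis enzymes 6 were tested between TT-Seq and Total RNA-Frag-Seq, with 1 higher and 4 lower and a median of -0.32, a count near that of the mRNA class. PGAM1, the mutase between PGK1 and enolase, changed by -0.63 ± 0.09, LDHB, the other lactate dehydrogenase chain, by -0.62 ± 0.10, HK1 by -0.35 and PFKP by -0.29, whereas BPGM, which makes the bisphosphoglycerate of red cells, was 0.25 higher. Over RefSeq coding spans 11 were tested, with 3 higher and 4 lower and a median of 0.09. There HK1 did not pass (0.09) and PFKP was higher (0.15), and ALDOC, a further aldolase, was lower (-2.66 ± 0.10). BPGM and ALDOC were named after their values were seen.

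Of 17 regulators and transporters 7 had a unit tested, 3 higher and 4 lower, with a median of -0.16. Over RefSeq coding spans 14 were tested, 7 higher and 4 lower, with a median of 0.17, so the balance turned with the feature used. BSG, the chaperone of lactate transporters, fell by 2.43, and PFKFB4 by 1.05. PFKFB4 sets the level of a fructose bisphosphate that stimulates phosphofructokinase and is not the one that ALDOA cleaves. EPAS1, a hypoxia-inducible factor, was 0.70 higher, and SLC2A1, the main glucose transporter of red cells and their precursors, 0.47 higher. Of 23 genes of side paths 16 were tested, 2 higher and 12 lower, with a median of -0.76 (over RefSeq coding spans 19 were tested, 4 higher and 9 lower, with a median of -0.12). PGD (-1.53 ± 0.07), PGLS (-1.09 ± 0.10) and TALDO1 (-0.97 ± 0.08), enzymes of the pentose phosphate pathway, were lower, and RPIA, the isomerase of ribose phosphate, was higher (1.13 ± 0.08).

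By distance between mean log2 CPM profiles over the 4 RNA groups, the 5 named mRNA class units most like the median profile of the 10 genes were LLGL1 (0.05), FOXL2NB (0.05), PMPCA (0.05), SPATA24 (0.06, from a unit that holds 2 genes) and UBE2A (0.06), out of 5845 candidates. Their log2 fold changes lay between -1.49 and -1.39 for TT-Seq against Total RNA-Frag-Seq.

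The authors' deposited table lists a synthesis and a decay rate for units, among them 6913 of the 7810 units of the mRNA class. The sources used here do not state in what unit they are. In the authors' deposited table, PGK1 and PKM have the highest synthesis rates of the 10 genes, 0.277 for both, at the 98.8 and 98.63 percentile of those 6913 units. In the authors' deposited table their decay rates are also alike, at 0.139, a value that 652 of these units share to within 0.1%. Neither rate thus ranks 1 of the 2 genes above the other. Their TT-Seq levels per kb of span (5.42 and 3.61 CPM per kb) lay between those of ENO1 (15.03) and HK2 (1.83). Over those 6913 units, the rank correlation of the synthesis rate with the TT-Seq counts per bin was 0.546. The units of 4 genes hold other genes too: GAPDH makes up 8.1% of a unit shared with NCAPD2, TPI1 5.2% of one with USP5, and ALDOA 21.7% of one with PPP4C. The GPI span covers 32% of a unit that also holds PDCD2L and UBA2. Their rates are therefore not given here.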

How the data were processed

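The values were deposited counts: the authors counted read fragments in 200 base pair bins of GRCh38, with the strands apart for RNA and together for ChIP, per their description of the deposited files. STAR 2.3.0, Bowtie2 2.1.0 and SAMtools are named, per the submitters' processing notes, without their roles. The authors' deposited table of units also gives a synthesis and a decay rate, used here only as a description.

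Bins with their centre inside a region were summed. Of 21874 units, 11 that overlapped the 10 genes gave way to the RefSeq gene spans. Differences were tested with edgeR 4.0.16 (R 4.3.3; quasi-likelihood, robust, filterByExpr, TMM factors, two-sided, Benjamini-Hochberg threshold 0.05 over all regions or windows), fitted over the 8 RNA or the 4 ChIP libraries. Ratios of the stretches were tested with limma 3.58.1 (pseudocount 1, at least 50 counts on average in each stretch). DESeq2 1.42.0 was an alternative. The procedures were tested on simulated data. The test of gene counts recovered 74% of log2 changes of 0.5 and 99% of changes of 1. The ChIP test recovered 12% of changes of 1 and 95% of changes of 2, so smaller ChIP changes can fail to pass. The test of the stretches recovered 15% of changes of 0.5 and 76% of changes of 1. CPM and levels per kb are relative to each library, no spike-in having been used here.

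All 10 genes were named. Of the other lists, up to 4 genes past the threshold with the largest change were named. Likeness used the distance between centred group means of log2 CPM, with a prior of 0.1. The members, lists and tests were chosen with earlier results of these data known. Alternatives were another scaling, filter, tool, feature set or window, a replicate block and each library left out. Exons and introns were not told apart, and no gene was left out.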

Additional observations from a re-analysis of the deposited data

Results flagged for a closer look

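For 9 of the 10 genes the change on purification differed between sheared and unsheared RNA, by the test of that difference itself (edgeR, the log2 change of TT-Seq over Total RNA-Frag-Seq minus that of 4sU-Seq over Total RNA-Seq). The difference was -1.31 in GPI, -0.933 in PFKL, -1.57 in ALDOA, -1.798 in TPI1, -1.681 in GAPDH, -0.345 in PGK1, -0.263 in PKM and -0.633 in LDHA. It was positive in HK2, at 0.263. Of all regions 25.8% had a negative and 8.79% a positive difference past the threshold. The cause was not tested.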

How the results depend on the processing

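Of 1256 values of the 10 genes under the alternatives, 1122 kept their direction and their side of the threshold, 66 lost their call, 28 gained one and 29 changed sign. The other 11 are ratios without a test that moved by more than the spread. RefSeq coding spans, windows after RefSeq 3' ends, the listed start and halved ChIP counts were chosen after seeing the data. The causes of the changes were not tested, except that fewer regions are tested with spans and with 2 kb windows.

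Without normalisation factors the median of all regions was 0.44 in place of 0.09 in TT-Seq over Total RNA-Frag-Seq, and that of all ChIP windows -0.74 in place of -0.11. In that setting HK2 was 0.249 in TT-Seq over Total RNA-Frag-Seq (1 gene higher). For sheared over unsheared total RNA the same setting gave 7 genes lower, HK2 at -0.124 and GPI at -0.009. It put the purification difference of ENO1 at 0.054 and TPI1 after its end at 0.053 (TT-Seq over 4sU-Seq). For S2P over N20 it gave 8 genes lower at the start, 3 higher and 1 lower in the body, and negative values for HK2 at the start (-0.276) and in the body (-0.381) and for LDHA in the body (-0.394) and after the end (-0.352).

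With RefSeq coding spans, HK2 was 0.363 in TT-Seq over Total RNA-Frag-Seq (1 gene higher), 8133 regions were called there in place of 15639, and 6923 in place of 13217 for 4sU-Seq over Total RNA-Seq. ENO1 had a purification difference of 0.071. For sheared over unsheared total RNA, the authors' units gave 1 gene higher, DESeq2 put HK2 at -0.071, and a fit of only the libraries compared put it at -0.021. After the 3' end, 2 kb windows gave 2 genes lower against Total RNA-Frag-Seq, PGK1 at -0.429 (0.362 and past the threshold without normalisation factors) and 456 windows called in place of 968. Against 4sU-Seq they gave 0 genes lower and 249 windows in place of 530. Windows after RefSeq ends gave 3747 and 2950. With 2 equal stretches TPI1 was at -0.122, and with wider starts and 2 kb windows 0 genes were lower in S2P after the end.

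Leaving out each library in turn gave these ranges. For sheared over unsheared total RNA, 1 to 6 genes were lower (1 without Total RNA-Seq replicate 2), 2383 to 4233 regions were called in place of 4273 (2383 without Total RNA-Frag-Seq replicate 2), HK2 lay between -0.092 and 0.048 and PGK1 between -0.173 and 0.016. For the purification difference 0 to 1 genes were higher. After the 3' end, TT-Seq over Total RNA-Frag-Seq gave 625 to 752 windows (625 without Total RNA-Frag-Seq replicate 1) and PGK1 between -0.047 and 0.112. TT-Seq over 4sU-Seq gave 3 to 5 genes higher, 0 to 1 lower, 298 to 381 windows (298 without TT-Seq replicate 1, 309 without TT-Seq replicate 2), PFKL between -0.524 and 0.102 and TPI1 between -0.179 and 0.176. For S2P over N20, 0 to 2 genes were higher and 1 to 7 lower at the start, with HK2 between -0.173 and 0.788. In the body 4 to 8 were higher, with ALDOA between -0.297 and 0.065. After the end 0 to 1 were lower, with HK2 between -1.051 and 0.299 and LDHA between -0.188 and 0.643. All windows called numbered 3659 to 11492 in place of 8846 (3659 without N20 replicate 1, 3737 without N20 replicate 2).

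Same-numbered libraries are not known to be pairs: the correlation of their deviations was 0.0032 to 0.0995 in RNA and 0.0693 in ChIP. With a replicate block, 15741 regions were called in TT-Seq over Total RNA-Frag-Seq and 8987 ChIP windows. PFKL at the start then passed (-0.891, edgeR adjusted p = 0.0368) and PGK1 in the body did not (0.900, 0.0642).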
